A study of Mus musculus with 12 samples.

Results

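The comparison described here is that of Cherry+ with Cherry- lung cells at day 10 after the injection of tumour cells. It takes the 6 libraries whose titles name day 10, 3 of Cherry+ and 3 of Cherry- cells, out of 12 in the series. All groups come from female Balb/c mice aged 6 to 10 weeks that received 4T1 labelling cells intravenously. 4T1 is a mammary carcinoma line of the same strain that seeds the lung. The lungs were digested, and cells negative for CD45 (the leukocyte antigen) and Ter119 (an erythroid antigen) were sorted, so that lung cells from injected mice serve as the control here and no group of uninjected mice enters. The labels give no genotype, no number of animals behind a library and no statement that replicates came from separate mice. P-values therefore rest on the variation among these 12 libraries, part or all of which may be technical.

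As background, niche-labelling tumour lines of this design secrete a form of the fluorescent protein mCherry that can cross cell membranes, and host cells close to the tumour cells take it up. A metastatic niche is the local tissue around a growing metastasis. In the CD45-negative part of the lung it can hold epithelial cells of the alveoli and airways, endothelium, fibroblasts and other stroma. Tumour cells are themselves CD45-negative, and the sources used here do not say whether a further gate removed them. In bulk libraries of this kind, fewer cells of a type and less RNA per cell cannot be told apart.

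The deposited table gives 32958 rows, each named by a UCSC known-gene identifier, with values on a log2 scale. Of these rows 7764 were at 0 in every library and were dropped, whereas no library was at 0 in the remaining 25194. The 15842 rows in which at least 3 of 12 libraries reached 10 on the linear scale are called the genes tested. None of the identifiers was found in the gene name table (0), the RefSeq gene table (0) or the GENCODE files (0), so the genes carry no symbols here. For the same reason the lists of epithelial, endothelial, fibroblast, leukocyte and erythroid markers were not tested, and the labelled cell type was not checked against its markers. The median gene tested stood at 8.70 to 8.82, depending on the library. Read depth is unknown, since the values are not counts.

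Cherry+ and Cherry- cells differed at day 10 in 6160 of the 15842 genes tested, or 38.9%, by limma at a Benjamini-Hochberg adjusted p under 0.05. Rises in Cherry+ cells numbered 2754 (17.4%) and falls 3406 (21.5%). The genes called higher rose by a median of 1.70-fold and those called lower fell by a median of 2.43-fold. The smallest difference called was 0.25 log2 units among rises and -0.27 among falls. The Cherry+ and Cherry- libraries did not overlap in 8570 genes (54.1%), of which 4121 (26.0%) were higher and 4449 (28.1%) lower in all 3 Cherry+ libraries. Of the genes called, 6067 (38.3% of those tested) also had libraries that did not overlap in the direction of the call.

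Calls of under 1 log2 unit were more often rises (1840) than falls (1155), whereas the large differences were mostly falls in Cherry+ cells. At 2 log2 units or more, 147 genes had risen and 915 had fallen. At 3 log2 units or more, there were 15 rises and 384 falls. At 4 log2 units or more, 132 genes had fallen and 0 had risen, and 80 had fallen without Cherry+ replicate 3. This tail was seen in each scaling run. After quantile normalisation the counts at 3 log2 units were 29 rises and 288 falls, and after cyclic loess 20 and 331. With 1 day 10 library left out, falls of this size numbered from 317 without Cherry+ replicate 3 to 460 without Cherry+ replicate 1, and rises from 5 without Cherry- replicate 3 to 27 without Cherry+ replicate 1. The balance of all calls did depend on it: falls made up 55.3% of the calls on the deposited values, 54.7% after cyclic loess, 52.5% after median ratios and 43.2% after quantile normalisation. The median over all genes, -0.05 log2 units as deposited, was 0.11 after quantile normalisation.

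**Figure D1:**
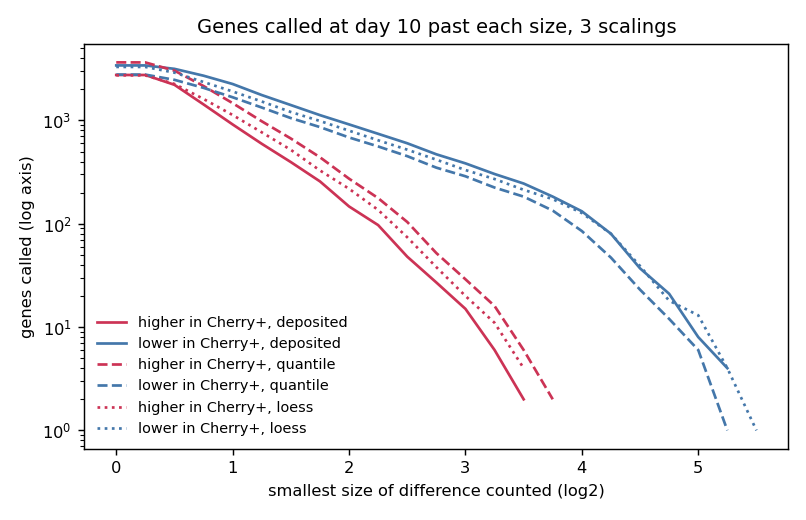
Number of genes called at day 10 (log axis) whose difference is at least the size on the x axis (log2), for genes higher (red) and lower (blue) in Cherry+ cells, on the deposited values (solid), after quantile normalisation (dashed) and after cyclic loess (dotted). From 3 log2 units on, falls outnumber rises in each scaling, with 384 against 15 on the deposited values.

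The levels of the genes with large differences are given as a description, since a deep fall needs a high level in Cherry- cells and choice by the difference favours one. The median gene tested stood at 8.82 in Cherry- and 8.71 in Cherry+ cells. The 384 genes with falls of at least 3 log2 units had a median level of 9.50 in Cherry- and 5.63 in Cherry+ cells on the deposited log2 scale, and the middle 50% of them lay between 8.04 and 11.23 in Cherry- cells. The 132 genes with falls of at least 4 log2 units had a median of 10.66 in Cherry- cells. The 147 genes with rises of at least 2 log2 units had a median of 6.76 in Cherry- and 9.28 in Cherry+ cells. No source used here gives the transform behind the deposited values. If it shrinks the differences of low genes, as such transforms can, rises from a low level would be understated, and this was not tested.

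The 2 identifiers with the largest rises and the 2 with the largest falls show how the libraries lay. They come first by size among genes that were called, whose groups did not overlap and whose higher group averaged 50 or more in linear terms. The gene uc008vnd.2 had log2 levels of 9.28, 8.46 and 8.38 in Cherry- replicates 1 to 3 and of 11.31, 12.18 and 13.21 in Cherry+ replicates 1 to 3. The lowest Cherry+ library lay 2.03 log2 units above the highest Cherry- library. Its rise of 3.53 ± 0.59 log2 units (SE, n = 3 per group) corresponds to 11.5-fold, with a limma adjusted p of 0.000797. The gene uc007bnf.2 had levels of 6.39, 5.66 and 5.83 in Cherry- and of 8.81, 9.44 and 10.17 in Cherry+ cells. Here too the groups were apart, by 2.42 log2 units, and Cherry+ replicate 1 was the lowest and replicate 3 the highest of the labelled libraries. The rise was 3.51 ± 0.69 log2 units (SE, n = 3 per group), or 11.4-fold, with a limma adjusted p of 0.00223. These SEs, and those that follow, come from the limma fit of all 12 libraries, so the spread at day 5 enters them. In a fit of the day 10 libraries alone they were 0.48 for uc008vnd.2 and 0.37 for uc007bnf.2. For the 2 largest falls that fit gave 0.26 and 0.29.

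The 2 largest falls were larger than the 2 largest rises and had smaller SEs. Over all calls the order of the SEs was the reverse, with a median of 0.26 among falls and 0.18 among rises. Among calls of at least 1 log2 unit the median SE was 0.30 for falls and 0.33 for rises. At 3 log2 units or more it was 0.30 for falls and 0.63 for rises. The gene uc008qvv.1 stood at 12.93, 12.76 and 13.47 in the Cherry- libraries and at 8.05, 7.24 and 7.48 in the Cherry+ libraries. The difference of -5.47 ± 0.25 log2 units (SE, n = 3 per group) corresponds to 44.2-fold, with a limma adjusted p of 2.20e-07. A gap of 4.71 log2 units separated the nearest libraries of the groups, beside an SD of 0.37 within the Cherry- and 0.41 within the Cherry+ libraries. The gene uc007tcn.1 stood at 17.12, 17.16 and 17.24 in the Cherry- libraries and at 12.58, 11.52 and 11.56 in the Cherry+ libraries. It was lower by -5.29 ± 0.26 log2 units (SE, n = 3 per group), or 39.0-fold, with a limma adjusted p of 2.85e-07. Its Cherry- libraries had an SD of 0.059, whereas the Cherry+ libraries had an SD of 0.60, with replicate 1 about 1 log2 unit above the others.

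**Figure D2:**
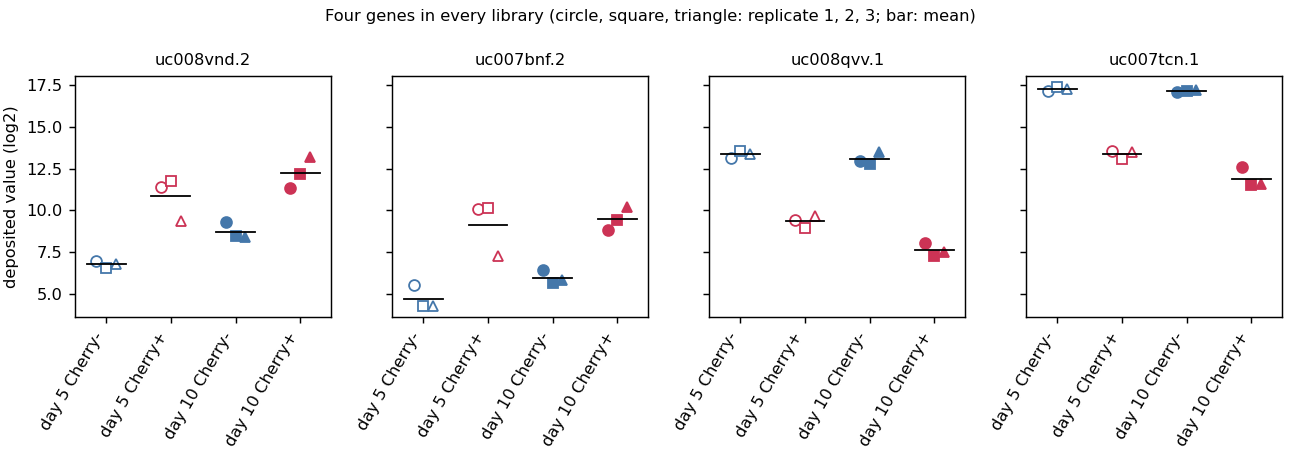
Deposited log2 values of the 4 identifiers (panels) in each library, with Cherry- cells in blue and Cherry+ cells in red, day 5 as open and day 10 as filled symbols, a symbol shape for each replicate and a bar at the group mean. At day 10 no Cherry+ library overlaps a Cherry- library in any panel, and the gaps are 2.03 and 2.42 log2 units for the rises and 4.71 and 4.54 for the falls.

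Many, though not all, of the genes with the highest values in Cherry- cells were called lower in Cherry+ cells. Of the 10 genes with the highest mean value in Cherry- cells, 8 were called lower in Cherry+ cells, 0 were called higher, and 4 had fallen by at least 3 log2 units. Of the top 100, 43 were called lower and 9 higher, and 12 had fallen by at least 3 log2 units. These counts stand beside 21.5% lower and 17.4% higher over all genes tested. Of the top 100 genes in Cherry+ cells, 37 were called higher and 12 lower, and 60 genes were in both top lists. The sources used here do not say whether values were divided by gene length, so these lists rank deposited values and not numbers of molecules. Each top list was chosen on one of the groups compared, which favours falls in the first and rises in the second.

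In the day 10 libraries the highest genes held a smaller share of the summed values in Cherry+ than in Cherry- cells. The sums cover the genes tested only. They take the deposited values as plain log2, although the transform is not known. On the linear scale, the 10 highest genes of a library held 7.81%, 8.07% and 8.78% of the summed values in the Cherry- libraries and 6.69%, 5.44% and 4.32% in the Cherry+ libraries. The single highest gene held 2.59%, 2.66% and 3.19% against 1.89%, 1.38% and 0.592%. The groups did not overlap in either share, nor in that of the top 100 genes, which held 20.7% to 22.2% in Cherry- and 16.2% to 20.5% in Cherry+ libraries. Each of these 3 shares gave p = 0.10 in a two-sided exact permutation test (n = 3 per group), the smallest that 3 against 3 allows, and 0.10 after Benjamini-Hochberg adjustment over the 3. At day 5 the top 10 genes held 8.49% to 9.70% in Cherry- and 5.25% to 7.44% in Cherry+ libraries, again without overlap. The top 100 genes held 22.1% to 23.7% in Cherry- libraries at day 5, and the Cherry+ libraries overlapped with them, at 19.5%, 20.2% and 23.9%.

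Of the same linear sums over the genes tested, the genes called lower held 32.8%, 31.2% and 33.8% in the Cherry- libraries. In the Cherry+ libraries they held 13.7%, 11.9% and 10.9%. The 384 genes with falls of at least 3 log2 units alone went from 9.49%, 8.84% and 9.93% to 0.675%, 0.427% and 0.352%. The genes called higher went from 17.4%, 17.6% and 16.6% to 29.8%, 32.6% and 35.5%. The direction of these sums follows from the calls, and only their size is a description. In each of these sums the Cherry+ library closest to the Cherry- group was replicate 1, and the most distant was replicate 3.

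The share of genes called, and its direction, changed with the level of the gene on the deposited values. Among the 2479 genes with a mean under 5 over the 12 libraries, 3.63% were higher and 26.3% lower in Cherry+ cells. Among the 2276 genes between 5 and 7 these shares were 8.92% and 29.7%, and among the 3729 genes between 7 and 9 they were 17.8% and 21.8%. Rises were the more frequent among the 5201 genes between 9 and 11 (23.5% against 16.4%) and the 1860 genes between 11 and 13 (503 against 345 genes). The 297 genes above 13 had equal numbers, 71 each.

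The direction in both low and high classes depended on the scaling. After cyclic loess falls were the more frequent between 9 and 11 (18.0% rises against 21.4% falls) and between 11 and 13 (379 rises against 454 falls). After quantile normalisation the genes under 5 had 15.3% rises and 13.6% falls, and after cyclic loess 12.1% and 13.9%. On the deposited values 279 genes reached 10 on the linear scale in all 3 Cherry- and in none of the Cherry+ libraries, and 24 showed the reverse. After quantile normalisation these numbers were 125 and 106, and after cyclic loess 115 and 107, so that which group had more genes of its own at this limit could not be settled from these values. Between 7 and 9, falls of at least 2 log2 units numbered 252 against 55 rises on the deposited values, 208 against 81 after quantile normalisation and 250 against 63 after cyclic loess.

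**Figure D3:**
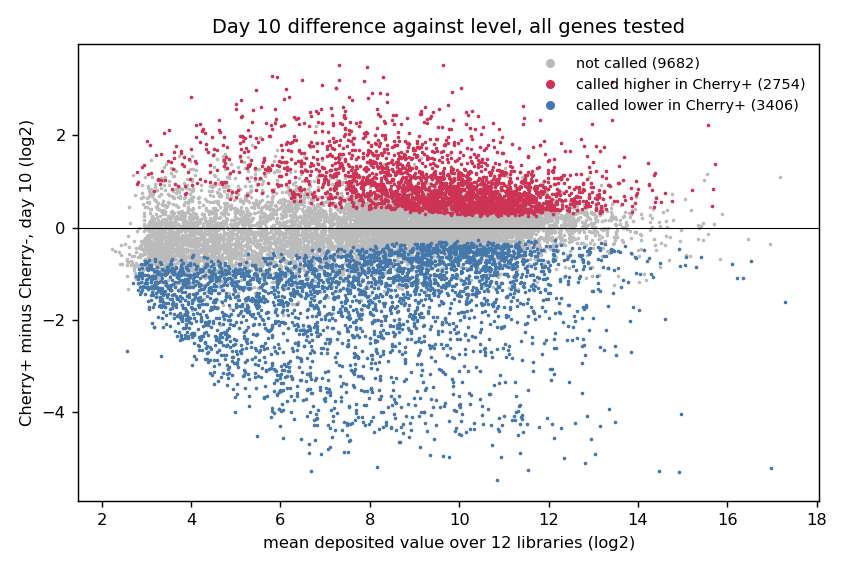
Day 10 difference, Cherry+ minus Cherry- (log2), against the mean deposited value over the 12 libraries (log2), one point per gene tested, with the 2754 genes called higher in red, the 3406 called lower in blue and the rest in grey. The cloud reaches to 3.53 above 0 and to -5.47 below it, and the large falls are found over most of the range of levels.

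The labelled libraries varied more among themselves than the unlabelled ones. The median SD of a gene was 0.25 log2 units in Cherry+ and 0.16 in Cherry- cells (n = 3 each), and the SD was larger in Cherry+ cells for 69.0% of genes. This held in each level class, from 56.4% of the genes under 5 to 73.7% of those above 13. It also held for genes called higher (70.9%), called lower (73.0%) and not called (67.0%). Replicate 3 was the library farthest from its group mean for 52.4% of genes in Cherry+ and for 48.3% in Cherry- cells.

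Cherry+ replicate 3 stood apart mainly by genes with lower values in it than in the other Cherry+ libraries. It lay at least 1 log2 unit below both other Cherry+ libraries in 1270 genes and at least 1 above both in 57. Replicate 1 had 38 genes below and 156 above, and replicate 2 had 5 and 324. In the 1270 genes the median level was 7.99 in Cherry- cells, 7.87 and 7.55 in Cherry+ replicates 1 and 2, and 5.89 in replicate 3. In replicate 3, 1140 of them (89.8%) lay below every Cherry- library, beside 45.7% of all genes tested, and their choice by a low value in this library favours that. With all libraries 53 of them were called higher and 385 lower (34.5%, beside 38.9% of all genes). Without replicate 3 the calls among them were 269 higher and 310 lower (45.6%, beside 32.5% of all genes). Since the genes were chosen for a low value in replicate 3, leaving it out had to raise their Cherry+ mean and lower its spread.

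A same-numbered pair of libraries can be left out and the calls of the other 10 libraries read in it. Of 1221 rises and 2235 falls called without pair 2, 100% and 99.9% had the same sign in pair 2, whereas 46.0% and 54.0% of all genes had that sign there. Without pair 1, 98.7% of 1954 rises and 94.7% of 2868 falls kept their sign in pair 1, beside 47.8% and 52.2% of all genes. Without pair 3, 98.6% of 2466 falls kept their sign in pair 3, but 87.0% of 1575 rises did. Among all genes 52.4% were lower and 47.6% higher there. Falls of at least 2 log2 units kept their sign in 99.8%, 99.9% and 100% of genes in pairs 1 to 3, and in pair 3 they were larger than in the fit (a median of -3.57 against -2.76 log2 units). In pair 1 the same class was smaller than in the fit, at -2.33 against -2.79. Pair 3 also had more falls of at least 1 log2 unit over all genes, at 22.0% beside 14.1% in pair 1 and 14.6% in pair 2.

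**Figure D4:**
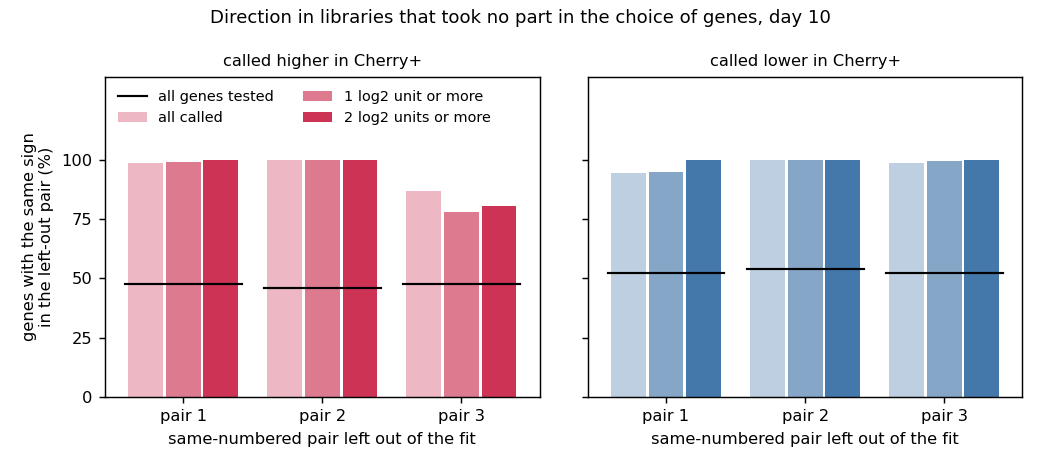
Share of genes (%) whose Cherry+ minus Cherry- difference has the same sign in a same-numbered day 10 pair as in the fit of the other 10 libraries that chose them, for genes called higher (left) and lower (right), with darker bars for larger differences and a black line for the share among all genes tested. Rises read in pair 3 are the lowest bars, at 78.0% to 87.0%.

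The rises that were not found in pair 3 were looked at after their values were seen. Of 694 rises of at least 1 log2 unit chosen without that pair, 541 had a higher value in Cherry+ than in Cherry- replicate 3 and 153 a lower one. The 153 genes had median levels of 7.78, 7.99 and 8.12 in the Cherry- libraries, 9.59 and 9.38 in Cherry+ replicates 1 and 2, and 7.31 in Cherry+ replicate 3. The day 5 libraries took no part in this split by sign, but their spread entered the fit that chose the 694 rises. That choice favours genes with a small spread at day 5, which pass the threshold there more easily in either direction. Shares of the 694 rises set beside those of all genes are therefore not an independent reading. The day 5 libraries held 79 of the 153 genes (51.6%) as higher and 13 as lower in Cherry+ cells. Over all genes 16.3% were higher and 17.2% lower. The medians of the 153 genes at day 5 were 8.59, 8.60 and 9.22 in Cherry+ and 8.20, 8.07 and 8.26 in Cherry- libraries. By these medians the genes were higher in each of the 3 Cherry+ libraries of day 5 than in the Cherry- libraries of that day. Their order among the day 10 libraries was fixed by the choice. The 541 other rises had 463 (85.6%) called higher and 1 called lower at day 5. Which cells the 153 genes belong to was not tested, since they carry no names.

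The day 5 libraries offer a reading of the same contrast in other samples, and a fit of each day alone shares neither libraries nor an estimate of the spread with the other. Both fits took the genes tested, whose filter used all 12 libraries. The day 10 libraries alone called 2772 rises (17.5%) and 3215 falls (20.3%). Of the rises, 1720 (62.0%) were also called higher at day 5, where 16.3% of all genes were, and 1 was called lower. Of the falls, 2198 (68.4%) were also called lower at day 5, where 17.2% of all genes were, and 10 were called higher. Of the 384 falls of at least 3 log2 units, 378 (98.4%) were called lower at day 5, and of the 15 such rises 14 (93.3%) were called higher.

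Read the other way, genes were chosen by their difference in the day 5 libraries, and their levels were read at day 10. Day 10 values entered that choice through the filter on all 12 libraries, which a gene can pass by its day 10 values alone. The 721 genes lower by at least 2 log2 units in Cherry+ cells at day 5 had median levels of 8.41, 8.33 and 8.35 in the day 10 Cherry- libraries and of 5.54, 5.29 and 4.46 in the day 10 Cherry+ libraries. Nearly all, 99.9%, were also below 0 at day 10, and 704 (97.6%) were called lower. The 298 genes higher by at least 2 log2 units at day 5 had medians of 7.73, 7.52 and 7.26 in Cherry- and of 9.19, 9.41 and 9.33 in Cherry+ libraries at day 10. Of these, 98.7% were above 0 at day 10, and 268 (89.9%) were called higher. In both sets the day 10 libraries of the groups did not overlap.

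**Figure D5:**
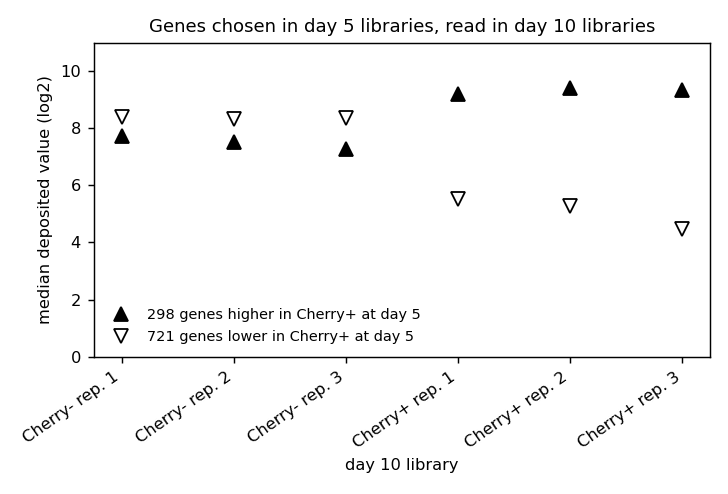
Median deposited value (log2) in each day 10 library of the 298 genes higher (filled triangles) and the 721 genes lower (open triangles) by at least 2 log2 units in Cherry+ cells in a fit of the day 5 libraries alone. The genes lower at day 5 lie between 8.33 and 8.41 in the Cherry- and between 4.46 and 5.54 in the Cherry+ libraries of day 10.

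As sets, the falls chosen at day 5 had larger medians at day 10, and the rises had smaller ones. The 721 falls chosen at day 5 had a median difference of -2.54 log2 units at day 5 and of -2.995 at day 10, and 500 of them (69.3%) were larger at day 10, although choice by size at day 5 favours larger values there. Without Cherry+ replicate 3 the day 10 median was -2.73, with 412 (57.1%) larger at day 10. With another day 10 library left out it lay between -2.99 and -3.16. Each other scaling chose its own genes at day 5. Their day 10 medians were -2.92 for 561 genes after quantile normalisation, -3.07 for 577 after cyclic loess and -3.03 for 695 after median ratios. The 1858 falls of at least 1 log2 unit had medians of -1.75 at day 5 and -1.90 at day 10, and here the order turned without Cherry+ replicate 3, at -1.68. The 298 rises went from 2.57 at day 5 to 1.76 at day 10, and their choice at day 5 favours this direction. Their level in Cherry- cells was 6.34 at day 5 and 7.50 at day 10, and in Cherry+ cells 9.04 and 9.26.

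The test of single genes between the days depended on the libraries used. The interaction in limma, the day 10 difference minus the day 5 difference, passed for 0 of the 15842 genes (0.00%), with a smallest adjusted p of 0.192. It passed for 161 genes without Cherry+ replicate 1, for 11 without Cherry+ replicate 3 and for 18 with library quality weights. For uc008qvv.1 the day 5 difference was -4.03 ± 0.25 log2 units (SE, n = 3 per group) and the change between the days -1.44 ± 0.36 (limma adjusted p = 0.240). For uc007tcn.1 the day 5 difference was -3.91 ± 0.26 and the change -1.38 ± 0.37 (SE, limma adjusted p = 0.269). The rises of uc008vnd.2 and uc007bnf.2 were 4.08 ± 0.59 and 4.46 ± 0.69 at day 5 (SE), with changes of -0.56 ± 0.83 and -0.95 ± 0.97 (limma adjusted p = 0.877 and 0.793). For uc008vnd.2 both kinds of cell had a higher mean at day 10, at 8.71 ± 0.49 in Cherry- and 12.23 ± 0.96 in Cherry+ cells against 6.74 ± 0.22 and 10.82 ± 1.29 at day 5 (SD, n = 3). Its Cherry+ libraries of the 2 days overlapped, at 11.38, 11.74 and 9.35 at day 5 and 11.31, 12.18 and 13.21 at day 10. A change between the days within Cherry+ cells was not tested.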

How the data were processed

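The authors deposited 1 table of log2 values, with 1 column for each of 12 libraries. RSEM 1.2.29, Bowtie2, DESeq2 1.12.4 and mm10 are named in the submitters' processing notes, with no role or order, and none of the sources used here gives the log2 transform. Columns were matched to samples by source name and grouped by title. Rows at 0 in every library were dropped, and genes were kept where at least 3 of 12 libraries reached 10 on the linear scale (3.32 in log2). Tests were made with limma 3.58.1 (R 4.3.3) on the deposited log2 values of all 4 groups, with a mean-dependent prior and 8 residual degrees of freedom. It was two-sided, with Benjamini-Hochberg adjustment over the 15842 genes tested and a threshold of 0.05. Without adjustment, 7603 genes had p under 0.05. The procedure was tested on simulated data in which each gene had the same spread in every group. The simulation therefore does not cover the larger spread of the Cherry+ libraries. Named genes were, without symbols, the first 2 rises and falls by size among genes called, not overlapping and at 50 or more (linear) in the higher group. The comparison, lists and rules were chosen with earlier results of these data known. Alternatives were 3 scalings, 2 filters, library quality weights, a replicate block, no trend, the day 10 libraries alone and each day 10 library left out. Figures were drawn with matplotlib 3.10.9.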

Additional observations from a re-analysis of the deposited data

How the results depend on the processing

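The day 10 count of 6160 genes lay between 4683 and 6422 under the 15 alternatives, and between 4683 and 6286 with 1 day 10 library left out. With 1 library left out the rises numbered 1942 to 2717, the falls 2713 to 3569, the rises of at least 1 log2 unit 708 to 1023 and such falls 1867 to 2543. Of the calls, 5185 were shared with cyclic loess and 5344 with quantile normalisation. The rises of at least 1 log2 unit moved from 914 to 1469 after quantile normalisation, against 1675 falls, so that the share of falls among such changes went from 71.1% to 53.3%. After cyclic loess that share was 62.8%. The number of genes that differed between the days, 0 here, was 18 with library quality weights, 161 without Cherry+ replicate 1 and 11 without Cherry+ replicate 3, within a range of 0 to 161 with 1 day 10 library left out. The day 10 calls also seen at day 5, 3918 of 5987, became 7365 of 11667 with quality weights fitted to each day alone, and 2914 to 4098 with 1 day 10 library left out. The cause was not tested. The differences of the 4 named genes had the same sign and passed the threshold in 60 of 60 values, with limma adjusted p-values up to 0.0106. With the replicate block 6199 genes were called at day 10, and 0 differed between the days. The source names of same-numbered day 10 libraries share a letter, and the labels do not say what it marks, so a shared animal or pool cannot be told from them. The deviations of same-numbered libraries correlated at -0.142, 0.572 and 0.107, and those of differently numbered libraries at -0.418 to 0.219. These values cannot decide whether the numbers mark pairs, since deviations within a group of 3 libraries are tied to one another. The numbers were not taken as pairs. With the block, 3989 of 5902 day 10 calls were seen at day 5. Scalings applied to the genes at the low limit, to the sizes and to the genes chosen at day 5 were added after seeing the data. Depth is unknown, so what it limits was not measured.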
